A study of Mus musculus with 10 samples.

Results

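The genes described here handle fatty acids in the heart muscle cell: they take fatty acids up, activate them, carry them into mitochondria, oxidise them there or in peroxisomes, and pass their electrons on. There were 43 such genes, chosen by symbol from what each protein does, among 23337 genes in the authors' deposited table of a comparison of dnMKL1 with GFP. The choice was made with earlier results of these data known. All 43 had a row, and 42 had an adjusted p-value, as had 14056 genes in all. The samples were cardiomyocytes of wild-type mice, isolated and sorted by fluorescence on postnatal day 14. The GFP group (5 libraries) had received AAV9-cTNT-GFP on postnatal day 1 at 5e+08 viral genomes per gram, and the dnMKL1 group (5 libraries) AAV9-cTNT-dnMKL1-GFP at that dose and age. Both groups therefore carry an adeno-associated virus and GFP, driven by the cardiac troponin T promoter, and differ by dnMKL1, a dominant-negative form of MKL1. MKL1 (MRTF-A) is a coactivator of serum response factor. The comparison asks which transcripts differ when dnMKL1 is added.

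After birth, heart muscle turns from glucose and lactate to fatty acids as its main fuel. A fatty acid crosses the cell membrane with the help of CD36, is bound by FABP3 in the cytosol, is joined to coenzyme A by an acyl-CoA synthetase, and enters the mitochondrion as a carnitine ester. In the matrix each turn of beta-oxidation uses a dehydrogenase, a hydratase, a second dehydrogenase and a thiolase, and the first of these passes its electrons to electron transfer flavoprotein (ETF). Many genes of this pathway are known targets of the nuclear receptors PPAR, RXR and ERR, which bind DNA at copies of AGGTCA.

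The promoter windows of the members are shown first, since the genes of several of those receptors are described below. RefSeq windows on GRCm38.p6, from 250 bases before to 50 after a transcript's start, were at hand for 36 of the 43 genes, as 41 windows. AGGTCA, searched on both strands, stood in 8 of the 41 windows (19.5%), against 16.3% of all 32851 windows and 13.7% of the 2138 windows of genes whose base mean reached 1000 normalized counts. The base mean is the average over all libraries in the authors' deposited table. The share among the members was thus close to that of other genes. The stretches below are those of 7 genes with a match before the start, because they hold the core element in members that fell (Acadm, Acadvl, Echs1, Ucp3), in Cpt1a, which rose, and in Cd36 and Acsl6, which did not pass the test. Capitals mark AGGTCA or its reverse complement TGACCT. Sequences run 5′ to 3′ on the strand of the gene. The start used is the 5′ end of the RefSeq gene for Acadm, Acadvl, Echs1 and Ucp3. It lies inside the gene by 53063 bases for Cd36, 975 for Cpt1a and 19 for Acsl6, so the stretches of these 3 genes precede an internal start.
Acadm, chr3:153944814-153944893, minus strand: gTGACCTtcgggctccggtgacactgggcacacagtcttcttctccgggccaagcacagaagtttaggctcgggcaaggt
Acadvl, chr11:70015473-70015552, minus strand: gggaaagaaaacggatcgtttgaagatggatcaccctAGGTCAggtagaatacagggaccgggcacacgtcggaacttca
Echs1, chr7:140116462-140116541, minus strand: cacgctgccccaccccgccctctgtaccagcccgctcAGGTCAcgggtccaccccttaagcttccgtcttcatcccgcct
Ucp3, chr7:100472805-100472884, plus strand: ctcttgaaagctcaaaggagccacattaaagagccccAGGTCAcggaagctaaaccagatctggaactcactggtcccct
Cpt1a, chr19:3323170-3323249, plus strand: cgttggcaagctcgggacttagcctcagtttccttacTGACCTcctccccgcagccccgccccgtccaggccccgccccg
Cd36, chr5:17836067-17836146, minus strand: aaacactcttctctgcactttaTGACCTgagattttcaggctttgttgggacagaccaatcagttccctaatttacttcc
Acsl6, chr11:54303620-54303699, plus strand: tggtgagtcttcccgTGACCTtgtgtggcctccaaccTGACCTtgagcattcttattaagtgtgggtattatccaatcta

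The Ucp3 window held another AGGTCA, with its first base 44 bases before the start. Both copies of TGACCT in the Acsl6 window, whose first bases lie 167 and 189 bases before the start, are in the stretch shown. The eighth gene, Phyh, had its match after the start, which is not printed. The longer ERR element TCAAGGTCA, whose last 6 letters are the core element, was found in 1 member window, the Acsl6 stretch shown above, and in 0.423% of all windows. A pair of core elements 1 base apart in the same direction, the PPAR-RXR arrangement, was found in 0 member windows and 0.0396% of all windows. The CArG box, the element that serum response factor binds, was in 0 member windows and in 1.63% of all windows, and in 2.06% for genes whose base mean reached 1000. These are counts of exact letters in short windows only. GGGCGG, the core of the GC box, was in 29 of 41 member windows (70.7%) and 35.7% of all, but also in 64.1% of windows of genes whose base mean reached 1000. CCAAT was in 51.2% of member windows, against 37.4% of all windows and 37.1% of those whose base mean reached 1000. TATAAA was in 0 of the 41, against 13.6% and 7.58%.

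The gene Mkl1, from which the vector's insert derives, fixed the direction of the comparison. Its implied group mean is taken as 83.9 normalized counts in GFP and 74899 in dnMKL1, vector and endogenous reads together. Implied means are those that the deposited fold change and base mean of a gene give for groups of equal size. The authors' deposited table does not state its direction, which was read from this gene, so its values check neither the direction nor the labels. Library totals estimated from the table ran from 8803028 to 17123577 counts for GFP and from 8835136 to 17228616 for dnMKL1. The 10 cardiomyocyte markers read here, such as Myh6 and Tnnt2, summed to 10.7% of the GFP total and 8.7% of the dnMKL1 total. Of these 10 markers, 5 were lower and 0 higher in the authors' deposited table (adjusted p-value under 0.05), with a median log2 fold change of -0.38. All 10 had base means over 10000, a class in which 70.7% of genes were lower. Without Myh6, left out after its values were seen, the other 9 made up 4.94% of the GFP total and 4.84% of the dnMKL1 total, with 4 lower.

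Most of the members fell in dnMKL1 cardiomyocytes, among them all but 1 of the 20 genes grouped here under mitochondrial beta-oxidation and ETF. Of 38 other tested fatty acid genes, described below, 15 were lower and 3 higher. Of the 42 members with an adjusted p-value, 29 were lower and 2 higher (Wald test with Benjamini-Hochberg adjustment in the authors' deposited table, under 0.05), and 11 did not pass. Over all 14056 genes, 17.4% were lower and 16.6% higher. The members' median log2 fold change was -0.60, with a range from -0.98 to 1.13, beside a median of 0.02 over all genes. Summed implied means went from 451509 normalized counts in GFP (3.39% of the group's total) to 289375 in dnMKL1 (2.65%). In bulk libraries of sorted cells, fewer cells of a type and less RNA per cell cannot be told apart. The lower values of the cardiomyocyte markers given above moved with this result, and their part in it was not tested.

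**Figure D1:**
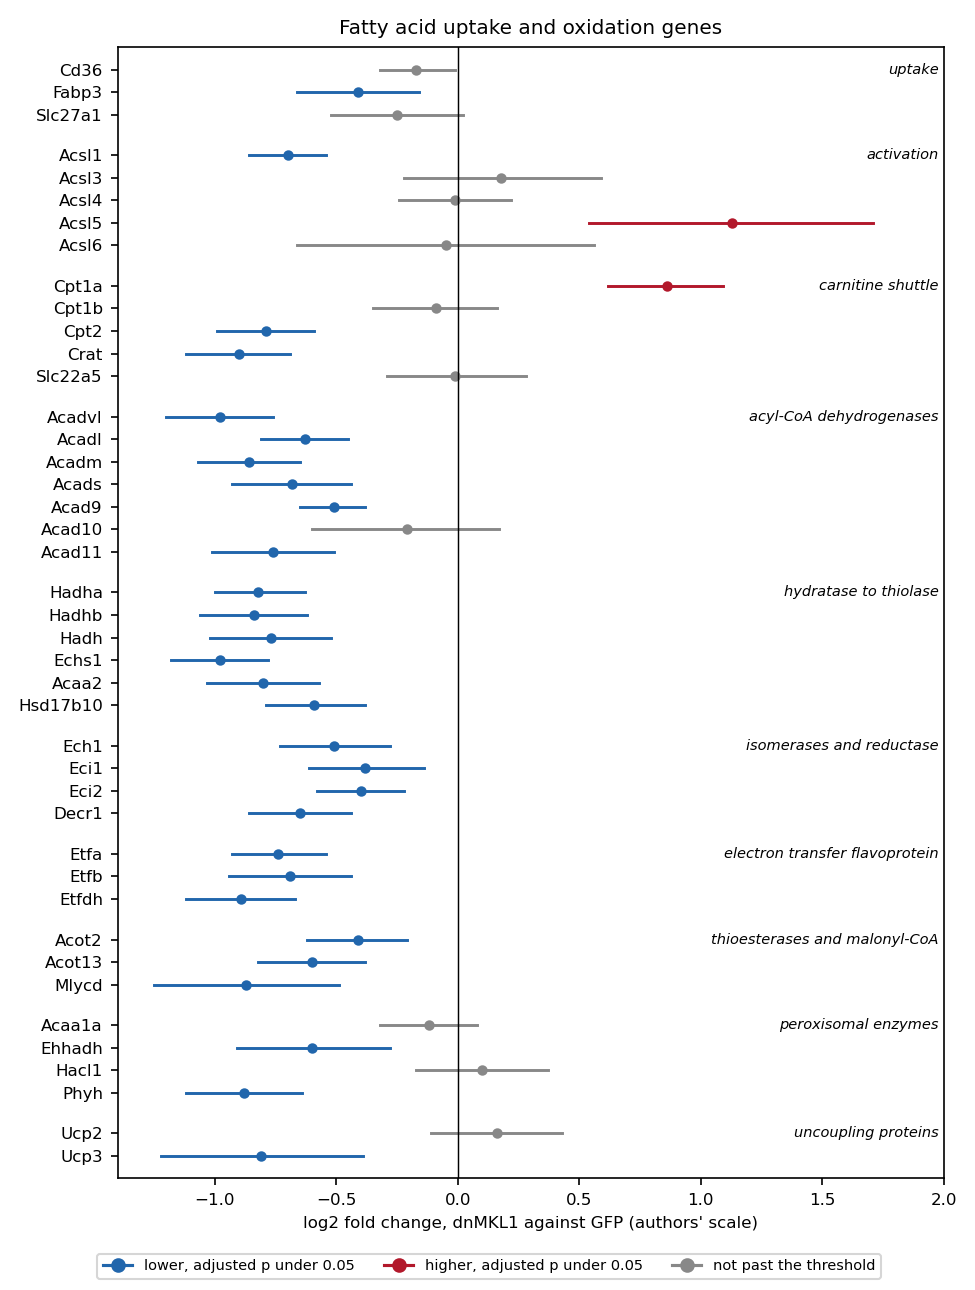
Log2 fold change of dnMKL1 against GFP (x axis) for the 42 members with an adjusted p-value, by step of the pathway. Points are the authors' deposited values and bars 95% normal intervals from the deposited SE; 29 members are lower, and Acsl5 and Cpt1a stand to the right at 1.13 and 0.86.

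Fold changes in this table depend on expression level, and the members are abundant. Their median base mean was 3281 normalized counts, against 12.4 over the whole table. Among the 14 members whose base mean reached 10000, 13 were lower and 0 higher, with a median log2 fold change of -0.77. In that class 70.7% of all 140 genes were lower and 3.57% higher, and the other 126 genes had a median of -0.56. Among the 19 members from 1000 to 10000, 15 were lower and 1 higher with a median of -0.60, whereas of 1986 genes in that range 797 were lower and 286 higher, with a median of -0.13. Over all genes whose base mean reached 1000, 42.1% were lower and 13.7% higher. Of the 9 tested members under 1000, 1 was lower (Ehhadh), 1 was higher (Acsl5) and 7 did not pass. Of all 11930 tested genes in that range, 1556 were lower and 2049 higher, so the members' counts there were near those of other genes. The median of these 9 members was -0.01, beside 0.05 for all genes in that range.

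**Figure D2:**
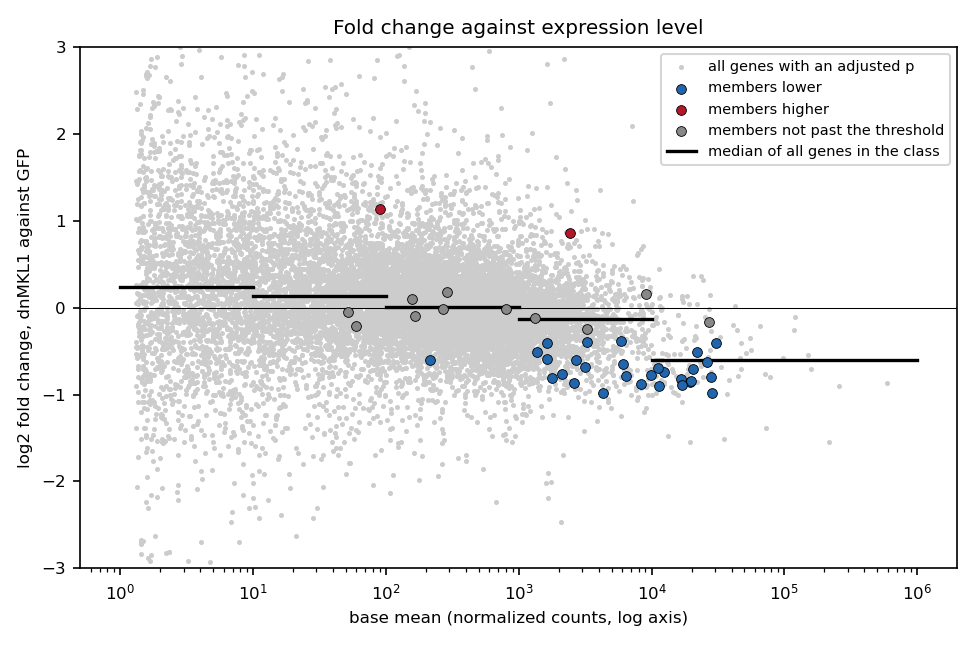
Log2 fold change (y axis) against base mean in normalized counts (x axis, log scale) for genes with an adjusted p-value (grey) and for the members (coloured by call). Black lines are medians of all genes per class of base mean, and 101 genes beyond 3 on either side are not drawn; from 1000 to 10000 most members lie below the class line at -0.13.

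Of the uptake genes only Fabp3 passed the test. Cd36, the fatty acid translocase of the cell membrane, was at an implied 28600 normalized counts in GFP and 25479 in dnMKL1. Its log2 fold change of -0.17 (SE 0.08, adjusted p = 0.0917) in the authors' deposited table did not pass the threshold. Fabp3, the heart fatty acid binding protein, had the highest level per kb of transcript of all members, 42125 in GFP and 31681 in dnMKL1. It fell, with a log2 fold change of -0.41 (SE 0.13, adjusted p = 0.00548) in the authors' deposited table. Slc27a1, a fatty acid transport protein, had implied means of 3564 and 2999 and did not pass (-0.25, SE 0.14, adjusted p = 0.153, in the authors' deposited table). Slc27a6, another transporter of that family, had a base mean of 0.304 normalized counts, under the level at which the authors' deposited table adjusts its p-values. Its level was thus too low to compare at this depth. The summed level of the 4 uptake genes was 0.501% of the GFP total and 0.5% of the dnMKL1 total.

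Cd36 is also expressed by capillary endothelium and fat cells, so markers of those cells were read beside it. All 12 endothelial markers had a row, their implied means summed to 3915 normalized counts in GFP and 4081 in dnMKL1, and 0 of 12 passed the threshold in the authors' deposited table, with 0 at an unadjusted p-value under 0.05. The median SE of these 12 was 0.31 on the log2 scale, so a change of the size seen for Cd36 (-0.17) could not be told from 0. Kdr, a receptor of vascular endothelial growth factor, had the largest base mean of these markers, 876. Of 6 adipocyte markers 3 were listed at 0 (Adipoq, Lep and Retn), and the other 3 had base means of 0.218 or less. Fibroblast markers summed to 5228 in GFP and 8877 in dnMKL1, with 5 of 12 higher and 0 lower in the authors' deposited table. Most of that rise came from Gsn (876 to 1951) and Fbln1 (748 to 1944), and 7 of the 12 did not pass. Mural markers summed to 18254 and 15947, with 3 of 9 higher and 1 lower (Acta2). Acta2, the only mural marker with a fold change below 0, went from 10454 to 4999 and set the direction of the sum. Abcc9, which did not pass, had implied means of 6332 and 7773. Acta2 and Abcc9 made up most of both sums, which thus say little of the other mural markers. The median log2 fold change of the 9 was 0.30, and Cspg4 went from 501 to 2019. The 11 macrophage markers summed to 183 and 162, with 1 higher (Cd68). The part of these cells in the members' values was not tested.

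Activation by acyl-CoA synthetases showed opposite movement within 1 enzyme family. Acsl1, the main synthetase of heart muscle, went from an implied mean of 25521 normalized counts in GFP to 15744 in dnMKL1, a log2 fold change of -0.70 (SE 0.08, adjusted p = 6.0e-16) in the authors' deposited table. Acsl5, known best from liver and intestine, went from 56.9 to 124, with 1.13 (SE 0.30, adjusted p = 9.7e-04) in the authors' deposited table. Per kb of transcript Acsl1 stood at 6549 in GFP and 4040 in dnMKL1, and Acsl5 at 13.4 and 29.2. Acsl3 (272 and 308), Acsl4 (271 and 269) and Acsl6 (52.8 and 51) had similar implied means in both groups, and none of these 3 passed the threshold in the authors' deposited table. Their 95% intervals on the log2 scale, -0.22 to 0.59, -0.24 to 0.22 and -0.66 to 0.56, leave room for modest changes either way. The fall of Acsl1 outweighed the rise of Acsl5 in counts, and the 5 genes summed to 26174 in GFP and 16497 in dnMKL1.

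Within the carnitine shuttle 1 gene rose and 2 fell. Cpt1a encodes the liver-type carnitine palmitoyltransferase of the outer mitochondrial membrane, the isoform that predominates in fetal heart. It rose from an implied mean of 1745 to 3158 normalized counts, a log2 fold change of 0.86 (SE 0.12, adjusted p = 2.4e-11) in the authors' deposited table, and stood at percentile 90.8 of all genes tested. Cpt2, the enzyme of the inner membrane that regenerates acyl-CoA, fell from 8105 to 4684 (-0.79, SE 0.10, adjusted p = 9.9e-13, in the authors' deposited table). Crat, carnitine acetyltransferase, fell from 14906 to 7965, to 53.4% of the GFP level (-0.90, SE 0.11, adjusted p = 6.9e-15, in the authors' deposited table). Slc22a5, the carnitine transporter of the cell membrane, had implied means of 806 and 803. Its log2 fold change of -0.01 (SE 0.15, adjusted p = 0.983) in the authors' deposited table had a 95% interval from -0.29 to 0.28.

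Cpt1b, the muscle-type isoform, had implied means of only 171 and 160 normalized counts, and did not pass (-0.09, SE 0.13, adjusted p = 0.646, in the authors' deposited table). Per kb of transcript this was 59.1 in GFP, against 404 for Cpt1a, although Cpt1b is known as the main isoform of adult heart. In RefSeq the Cpt1b gene (chr15:89416405-89425862) lies wholly inside Gm44502, the Chkb-Cpt1b readthrough gene (chr15:89416405-89429927). Reads on shared exons can be assigned to either gene or to neither, so the level of Cpt1b and the ratio of the isoforms are uncertain. The Cpt1a promoter stretch is shown above, and Cpt1b had no promoter window.

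The acyl-CoA dehydrogenases, which open each turn of beta-oxidation for chains of different length, fell in 6 of 7 cases. Acadvl, for very long chains, went from an implied mean of 37758 to 19164 normalized counts, to 50.8% of the GFP level (log2 fold change -0.98, SE 0.11, adjusted p = 4.0e-16, in the authors' deposited table). Acadl, for long chains, went from 32057 to 20680, to 64.5% (-0.63, SE 0.09, adjusted p = 1.5e-10, in the authors' deposited table). In GFP the Acadvl level was thus above that of Acadl (17416 and 16731 per kb), and in dnMKL1 below it (8840 and 10793 per kb). The 95% intervals of these fold changes, -1.20 to -0.76 and -0.81 to -0.45, overlap, and the difference was not tested.
Acadm, for medium chains, fell from 25128 to 13846 (-0.86, SE 0.11, adjusted p = 1.9e-14), and Acads, for short chains, from 3858 to 2404 (-0.68, SE 0.12, adjusted p = 6.0e-07, both in the authors' deposited table). The fold changes did not follow the order of chain length. Acad9, which also serves in the assembly of respiratory complex I, fell from 1627 to 1141 and Acad11 from 2660 to 1571, with -0.51 (SE 0.07) and -0.76 (SE 0.13) in the authors' deposited table and adjusted p-values of 3.6e-12 and 7.2e-08. Acad10 was the exception, at implied means of 63.6 and 54.9 (-0.21, SE 0.20, adjusted p = 0.458, in the authors' deposited table).

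All 6 genes of the steps from hydratase to thiolase fell. Hadha and Hadhb encode the alpha and beta subunits of the mitochondrial trifunctional protein, which carries out the last 3 reactions on long chains. Hadha went from 21095 to 11974 and Hadhb from 25536 to 14254 normalized counts. In the authors' deposited table their log2 fold changes were -0.82 (SE 0.09) and -0.84 (SE 0.11), with adjusted p-values of 4.0e-16 and 1.2e-12. The ratio of Hadha to Hadhb counts was 0.826 in GFP and 0.84 in dnMKL1, a difference of 0.02 on the log2 scale. These genes lie head to head on chromosome 5, with 272 bases between their RefSeq first bases at 30154980 (Hadha, minus strand) and 30155253 (Hadhb, plus strand). The 85 bases of it that lie outside every GENCODE exon are printed because a single short region lies upstream of both genes. They are given 5′ to 3′ on the strand of Hadhb, with both copies of GGGCGG in capitals.
Hadha to Hadhb, chr5:30155163-30155247, plus strand: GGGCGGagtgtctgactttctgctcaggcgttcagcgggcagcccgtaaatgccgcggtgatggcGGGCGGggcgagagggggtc

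For shorter chains the same steps use single enzymes. Echs1, the short-chain enoyl-CoA hydratase, fell from an implied mean of 5728 to 2903 normalized counts, to 50.7% of the GFP level, and had the smallest adjusted p-value of the members (-0.98, SE 0.10, adjusted p = 5.8e-20, in the authors' deposited table). Hadh, the 3-hydroxyacyl-CoA dehydrogenase, fell from 12401 to 7249 (-0.77, SE 0.13, adjusted p = 2.2e-08, in the authors' deposited table). Acaa2, the mitochondrial thiolase, was second in level per kb in GFP (23597, and 13568 in dnMKL1) and fell from 35774 to 20569 (-0.80, SE 0.12, adjusted p = 3.9e-10, in the authors' deposited table). Hsd17b10, which serves the breakdown of branched short chains and of isoleucine, fell least of the 6, from 1967 to 1311 (-0.59, SE 0.11, adjusted p = 6.0e-07, in the authors' deposited table).

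The isomerases and the reductase that prepare unsaturated fatty acids for the cycle all fell. Their median log2 fold change was -0.45, beside -0.81 for the hydratase to thiolase genes. Ech1, an isomerase whose level per kb was 20494 in GFP, behind Acaa2, and 14409 in dnMKL1, ahead of it, went from 25966 to 18256 normalized counts. Eci1 went from 6691 to 5152 and Eci2 from 3692 to 2801, both enoyl-CoA isomerases. Decr1, the dienoyl-CoA reductase, went from 7474 to 4758. In the authors' deposited table the log2 fold changes were -0.51 (SE 0.11) for Ech1, -0.38 (SE 0.12) for Eci1, -0.40 (SE 0.09) for Eci2 and -0.65 (SE 0.11) for Decr1. Their adjusted p-values there were 7.1e-05, 0.00745, 1.4e-04 and 1.3e-08. The difference between the groups of enzymes was not tested.

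Electron transfer flavoprotein, which collects electrons from the acyl-CoA dehydrogenases, fell in both subunits and in its own dehydrogenase. Etfa went from 15555 to 9335 normalized counts and Etfb from 13895 to 8614, with log2 fold changes of -0.74 (SE 0.10) and -0.69 (SE 0.13) in the authors' deposited table (adjusted p = 8.0e-12 and 6.0e-07). The ratio of Etfa to Etfb counts was 1.12 in GFP and 1.08 in dnMKL1. Etfdh, which hands the electrons to ubiquinone, fell from 22017 to 11842 (-0.89, SE 0.12, adjusted p = 4.7e-13, in the authors' deposited table). Taking the dehydrogenases, the later steps, the isomerases, the reductase and ETF as 1 block, 19 of 20 genes were lower and 0 higher, with a median of -0.71. Of the 22 tested members outside it, 10 were lower and 2 higher, with a median of -0.21. The block is also the more abundant, with a median base mean of 10540 against 1776 for the members outside it. Fold changes in this table depend on level, and the difference between block and other members was not tested.

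All 3 genes that act on malonyl-CoA or release acyl groups fell. Mlycd, malonyl-CoA decarboxylase, removes the inhibitor of carnitine palmitoyltransferase, and went from 3375 to 1845 normalized counts (-0.87, SE 0.19, adjusted p = 4.9e-05, in the authors' deposited table). Acacb, the mitochondrial acetyl-CoA carboxylase that makes malonyl-CoA and is not a member, had implied means of 6314 and 5170 and did not pass (-0.29, SE 0.13, adjusted p = 0.0849, in the authors' deposited table). The ratio of Mlycd to Acacb counts was 0.534 in GFP and 0.357 in dnMKL1. The thioesterases Acot2 and Acot13, which release free fatty acids from coenzyme A, went from 1856 to 1392 and from 3232 to 2130. The authors' deposited table gave -0.41 (SE 0.11, adjusted p = 5.2e-04) for Acot2 and -0.60 (SE 0.11, adjusted p = 1.0e-06) for Acot13. Acot2 has close paralogs such as Acot1, between which counting can split reads.

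Peroxisomal enzymes, which shorten very long and branched chains, were divided. Phyh, which starts the alpha-oxidation of phytanic acid, fell from 10740 to 5838 (-0.88, SE 0.12, adjusted p = 1.3e-11, in the authors' deposited table). Ehhadh, the peroxisomal bifunctional enzyme and a well-known PPAR-alpha target, fell from 257 to 170 (-0.60, SE 0.16, adjusted p = 0.00108, in the authors' deposited table). Acaa1a, the peroxisomal thiolase, had implied means of 1373 and 1263, and Hacl1, the next enzyme of alpha-oxidation after Phyh, 151 and 162. Neither passed, with -0.12 (SE 0.10, adjusted p = 0.404) and 0.10 (SE 0.14, adjusted p = 0.653) in the authors' deposited table. Acaa1a has the near copy Acaa1b, whose base mean was only 1.47.

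The uncoupling proteins Ucp3 and Ucp2 are carriers of the inner mitochondrial membrane whose genes lie 6904 bases apart on chromosome 7. Ucp3, whose expression is known to follow fatty acid supply in muscle, fell from 2259 to 1292 (-0.81, SE 0.21, adjusted p = 8.5e-04, in the authors' deposited table). Ucp2 had implied means of 8585 and 9584 and did not pass (0.16, SE 0.14, adjusted p = 0.419, in the authors' deposited table). The ratio of Ucp2 to Ucp3 counts went from 3.8 to 7.42. Their 95% intervals, -0.11 to 0.43 for Ucp2 and -1.22 to -0.39 for Ucp3, do not overlap.

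**Figure D3:**
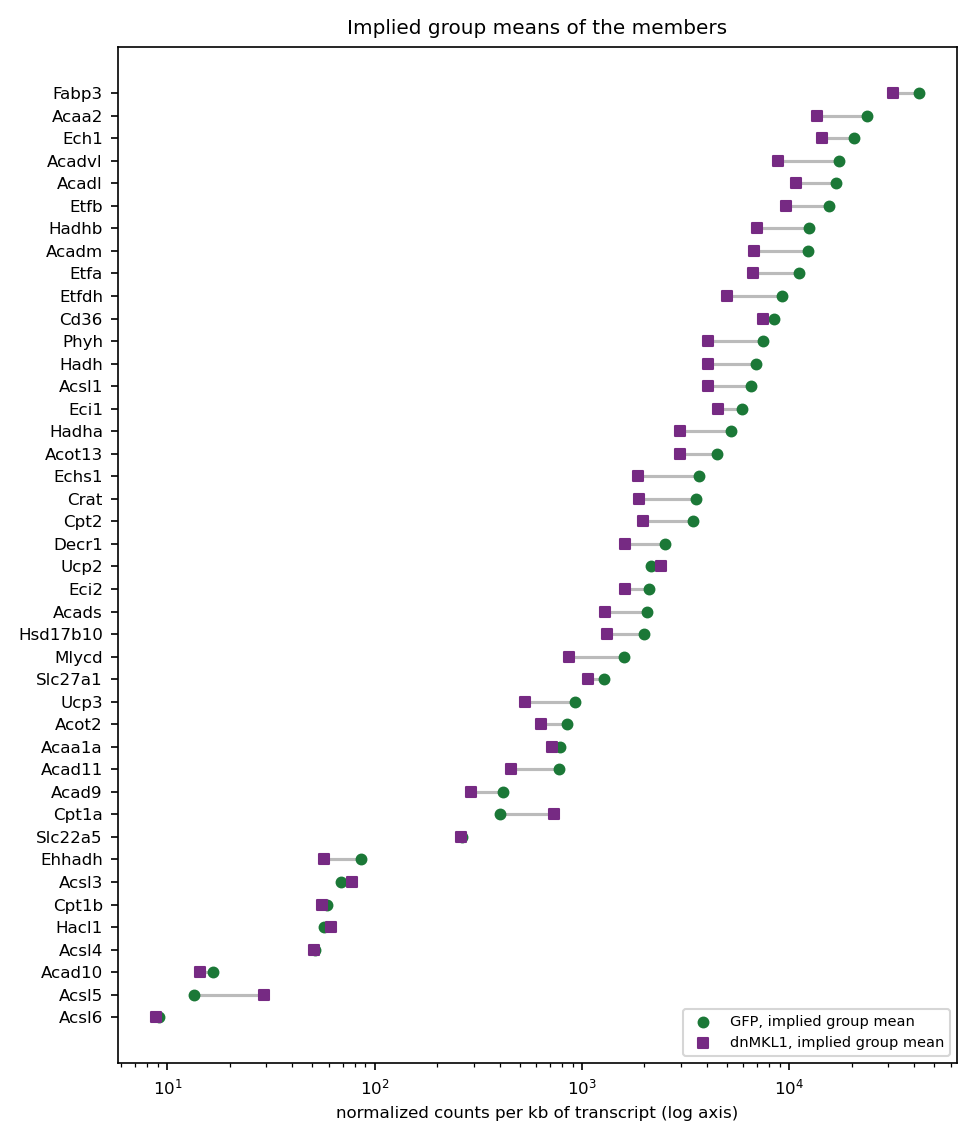
Implied group means per kb of the longest coding transcript (x axis, normalized counts, log scale) of 42 members, ordered by the GFP value; Slc27a6 is left out for its low level. Each line joins GFP (circle) and dnMKL1 (square); the dnMKL1 value is the lower for most genes, with Cpt1a (404 and 732) and Acsl5 (13.4 and 29.2), which passed the test, and Ucp2, Acsl3 and Hacl1, which did not, in the other direction.

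The spread between libraries can be read only through the deposited SE. That SE comes from the authors' fit and includes counting noise, so the values below are implied by the fit and were not observed. Under equal spread in both groups, the SEs of members whose base mean reached 1000 correspond to a coefficient of variation between libraries from 7.53% (Acad9) to 23.3% (Ucp3). Acsl1 and Cd36 had 8.87% and 8.7%. Acsl5 and Acsl6, with base means of 90.5 and 51.9, had 32.8% and 34.2%, while Acad10, with a base mean of 59.3, had 21.6%. The size of the Acsl5 rise is correspondingly loose, with a 95% interval from 0.54 to 1.71.

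The rest of the pathway was read from a wider list, beside shares over all genes tested of 17.4% lower and 16.6% higher. Of 46 genes listed from the pathway besides the members, 38 were tested in the authors' deposited table, of which 15 were lower, 3 higher and 20 did not pass, with a median log2 fold change of -0.25. Abcd2, a peroxisomal importer of very long chains, had the smallest p-value and fell from 186 to 63.1 normalized counts (-1.56, SE 0.17, adjusted p = 2.6e-17, in the authors' deposited table). Hsd17b4, the peroxisomal multifunctional enzyme, fell from 2859 to 1772, the racemase gene Amacr from 662 to 415 and Abcd3, another peroxisomal importer, from 3768 to 2712. Scp2, with peroxisomal thiolase activity, went from 2321 to 1631 and Nudt19, which cleaves coenzyme A, from 1872 to 1272, both lower. Acat1, the mitochondrial acetoacetyl-CoA thiolase, highest in base mean among them, went from 16243 to 10318. These genes had log2 fold changes in the authors' deposited table of -0.69 (SE 0.08) for Hsd17b4, -0.67 (SE 0.10) for Amacr, -0.47 (SE 0.08) for Abcd3, -0.51 (SE 0.09) for Scp2, -0.56 (SE 0.10) for Nudt19 and -0.65 (SE 0.11) for Acat1. Of the 3 higher genes, the mitochondrial thioesterase gene Acot9 rose from 637 to 819 (0.36, SE 0.06, adjusted p = 6.3e-08, in the authors' deposited table). The others were Slc27a4 (480 to 561) and Cpt1c (9.63 to 28.4), the third carnitine palmitoyltransferase of the outer step, known mainly from brain. Outside the naming rule, Slc25a20, the carnitine-acylcarnitine translocase between Cpt1 and Cpt2, is given for its place in the shuttle and fell from 4709 to 2938 (-0.68, SE 0.13, adjusted p = 2.4e-06, in the authors' deposited table).

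Nuclear receptors and cofactors of this pathway were examined next, because receptors of these families can bind the core element. AGGTCA was in 19.5% of member windows and 16.3% of all windows, and whether any receptor binds the stretches shown was not tested. Over all genes tested, 17.4% were lower and 16.6% higher. Of the 13 genes read here, 8 were lower, 1 higher and 4 did not pass in the authors' deposited table, with a median of -0.33. Ppara, the fatty acid sensing receptor, fell from 890 to 518 normalized counts, Rxrg, a PPAR partner, from 1324 to 452, and Esrra (ERR-alpha) from 1356 to 839. The coactivator gene Ppargc1b fell from 1182 to 413 and Ppargc1a, highest in base mean among them, from 2741 to 2178. In the authors' deposited table their log2 fold changes were -0.78 (SE 0.15) for Ppara, -1.55 (SE 0.21) for Rxrg, -0.69 (SE 0.10) for Esrra, -1.52 (SE 0.17) for Ppargc1b and -0.33 (SE 0.10) for Ppargc1a. Adjusted p-values there were 1.8e-06, 3.3e-12, 1.5e-11, 9.9e-17 and 0.00661. Nrip1, a corepressor, fell from 631 to 503 and Esrrb from 122 to 87.3 (-0.33, SE 0.11, and -0.48, SE 0.17, in the authors' deposited table). Pparg, the fat cell receptor, rose from 28.3 to 58.8 (1.05, SE 0.30, adjusted p = 0.0019, in the authors' deposited table). Esrrg, with implied means of 956 and 974, did not pass.

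Known PPAR-responsive genes outside the members moved in both directions. Of 8, 4 were lower, 2 higher and 2 did not pass in the authors' deposited table. Shares over all genes tested were 17.4% lower and 16.6% higher. The lipid droplet protein gene Plin5 fell from 4769 to 2253, the triglyceride lipase gene Pnpla2 from 5673 to 3394, the thioesterase gene Acot1, also on the wider list, from 521 to 337 and Pdk4, the kinase that restrains pyruvate oxidation, from 21065 to 11654. Fgf21, among the higher genes, stood at implied means of 0.287 and 2.92 normalized counts, too few to give a fold. Angptl4 (1173 and 1012) and Plin2 (1461 and 1504) did not pass.

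Set beside other routes of energy supply, the members' median of -0.60 lay between those of respiration and glycolysis. All 20 genes of pyruvate dehydrogenase, pyruvate import and the citric acid cycle were lower in the authors' deposited table, with a median log2 fold change of -0.81. Of 30 electron transport genes 29 were lower and 0 higher, with a median of -0.79. Atp5b, a subunit of ATP synthase, had the largest base mean of these and fell from 177543 to 121699. The block of 20 genes grouped here under beta-oxidation and ETF was near these values at -0.71. Of 20 genes of glucose uptake and glycolysis, 8 were lower and 4 higher, with a median of -0.18. There too isoforms parted: the glucose transporter gene Slc2a4 fell from 5477 to 2964 while Slc2a1 rose from 123 to 331, and the phosphofructokinase gene Pfkm fell from 17531 to 12121 while Pfkl rose from 3764 to 6236. Pgam1 rose from 261 to 517, and Eno3 (40884 to 25432), Ldhb (21138 to 15369) and Tpi1 (15357 to 12117) fell. The lists differ in level. Median base means were 3281 for the members, 12352 for electron transport, 10506 for the citric acid cycle and 7257 for glycolysis. The 14 members whose base mean reached 10000 had a median log2 fold change of -0.77. The differences between these lists were not tested.

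**Figure D4:**
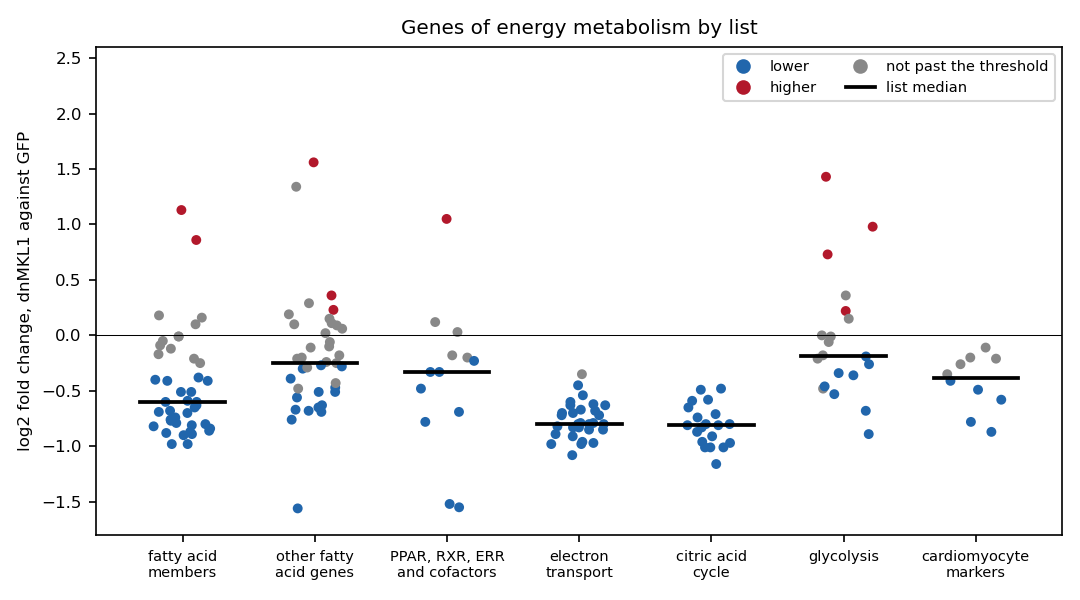
Log2 fold change of dnMKL1 against GFP (y axis) of single genes with an adjusted p-value, by list (x axis), coloured by call, with the list median as a bar. Medians are -0.60 for the members, -0.25 for other fatty acid genes, -0.33 for receptors and cofactors, -0.79 for electron transport, -0.81 for the citric acid cycle, -0.18 for glycolysis and -0.38 for cardiomyocyte markers; sideways scatter of points has no meaning.

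Implied means summed to 13330302 normalized counts in GFP and 10915829 in dnMKL1, and scaling both groups to the same total adds 0.29 to every log2 fold change. That exceeds in size the medians of the other fatty acid genes (-0.25) and of glycolysis (-0.18), which turn sign, while those of the members, electron transport and the citric acid cycle stay below 0. Cd36 and 7 other members that had not passed also turn sign. Then 23 members were lower and 6 higher, with 6.6% of all genes lower and 40.4% higher. Fabp3, Ech1, Eci1, Eci2, Acot2 and Ehhadh no longer passed, Acsl3, Hacl1 and Ucp2 joined Acsl5 and Cpt1a as higher, and so did Acsl4. Centring on genes whose base mean reached 1000 adds 0.15 and left 27 lower and 2 higher, beside 10.4% and 26.6% of all genes. With an adjusted p-value under 0.01 the counts were 29 and 2 (13.4% and 11.9% of all genes), and with adjustment over every p-value also 29 and 2 (13.7% and 12.8%). Requiring a base mean of 100 gave 29 and 1 (24.9% and 18.4%), and an absolute log2 fold change of at least 0.5 gave 25 and 2 (8.86% and 10.6%).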

How the data were processed

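RNA-seq libraries were made from sorted cardiomyocytes, 5 of the GFP and 5 of the dnMKL1 group, from 10 ng of total RNA with 8 cycles of PCR, per the labels' protocols. Reads were aligned with STAR 2.5.3a to mm10 and counted with featureCounts (Subread 1.5.2), per the submitters' processing notes. Annotation and use of strand are not given in the sources used here, so overlapping genes are uncertain; 19 of the 43 members overlap another RefSeq gene. One table was analysed, the authors' own comparison, whose columns are, per the file headers, those that DESeq2 writes. In it the deposited base mean is a signal in counts divided by the authors' size factors, the fold change with its deposited SE is a log2 value, the deposited Wald statistic is a score, and the deposited p-value is given raw and Benjamini-Hochberg adjusted. Values per library were not used here, so replicate error enters only through the deposited SE and no SD is given.

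Implied group means were computed from base mean and fold change, taking groups of equal size. Intervals are log2 fold change and SE under a normal distribution at 95%. Library totals were estimated from genes with 1 read in 1 library. The threshold was an adjusted p-value under 0.05. All members with a row are named, and of each other list mainly genes past the threshold, up to 8 by smallest adjusted p-value, and the gene with the largest base mean. Some genes that this rule names are not reported here. Members and lists were chosen with earlier results of these data known. Levels per kb use the longest coding transcript in GENCODE. Promoter sequences are from RefSeq (GRCm38.p6). Alternatives were thresholds, adjustment, a filter on base mean and 2 scalings. Python 3.11.15, numpy 2.4.6, pandas 2.3.3, scipy 1.17.1 and matplotlib 3.10.9 were used. The code for p-values and their adjustment was run on fold changes simulated with the deposited SEs. Such a run cannot check those SEs or the authors' calls.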

Additional observations from a re-analysis of the deposited data

How the results depend on the processing

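Of the 31 members past the threshold, 31 kept their call and direction at an adjusted p-value under 0.01 and with adjustment over every p-value, 30 among genes whose base mean reached 100, 29 after centring on genes whose base mean reached 1000, 27 with an absolute log2 fold change of at least 0.5 and 25 after scaling to equal total counts. Equal totals moved the members' median log2 fold change from -0.60 to -0.31, and the centring to -0.45. With equal totals 6 members were higher in place of 2, 9 of the other fatty acid genes were lower in place of 15 and 6 were higher in place of 3. Requiring a base mean of 100 left 1 member higher, since Acsl5 is under it. A fold change of at least 0.5 left 1 of the other fatty acid genes higher. The sign turned in 8 members that did not pass the threshold as deposited: with equal totals Cd36 was at 0.12, Slc27a1 at 0.04, Acsl4 at 0.28, Acsl6 at 0.24, Cpt1b at 0.19, Slc22a5 at 0.28, Acad10 at 0.08 and Acaa1a at 0.17. With the centring Acsl4 was at 0.14, Acsl6 at 0.10, Cpt1b at 0.05, Slc22a5 at 0.14 and Acaa1a at 0.03. Each scaling adds the same shift to every gene, so members with small fold changes move first. No paired analysis was possible because the deposited comparison carries no values per replicate. For the same reason no replicate was left out in turn, and no refit with DESeq2 or edgeR was run. Slc27a6, Acsl5, Acsl6 and Acad10 had the lowest base means of the members, 0.304, 90.5, 51.9 and 59.3.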
